A study of Mus musculus with 14 samples.

Results

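The genes described here encode the proteasome, namely its core and regulatory subunits, the activators that cap the core and the chaperones that assemble it. They were chosen by symbol alone: Psma, Psmb, Psmc, Psmd, Psme or Psmg followed by a digit, without the immunoproteasome catalytic subunits Psmb8, Psmb9 and Psmb10. The arrays carry 46 such genes among 20284 named genes. RefSeq (GRCm38.p6) lists 53 matching symbols, of which the 7 without a named probe are Psme2b and pseudogenes. By role, the 46 are 8 genes of the alpha ring, 8 of the beta ring, 6 base ATPases, 11 non-ATPase subunits of the regulatory particle, 3 base assembly chaperones, 4 core assembly chaperones and 4 activators. The other 2, Psmc3ip, a meiotic recombination cofactor, and Psme3ip1, a binding partner of Psme3, match the symbol rule but are not proteasome subunits. Of the 46, 43 were well above background on all 12 arrays of the larger array design and 44 were tested in each comparison. Psma8, the testis alpha subunit, was well above background on 1 array and Psmb11, the thymus beta subunit, on 0, so neither was tested.

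The proteasome degrades proteins tagged with ubiquitin. Its core is a barrel whose outer rings are alpha subunits and whose inner rings are beta subunits, of which Psmb5, Psmb6 and Psmb7 are the constitutive catalytic ones. A regulatory particle caps the core: its ATPases unfold the substrate, and its other subunits bind and remove ubiquitin. The chaperones Psmg1 to Psmg4 build the alpha ring, whereas Psmd5, Psmd9 and Psmd10 help to assemble the ATPase ring. Psme1 and Psme2 form an interferon-inducible cap linked to MHC class I peptide supply, Psme3 forms a related nuclear cap, and Psme4 is a nuclear activator of another kind. In dendritic cells and after interferon, Psmb8, Psmb9 and Psmb10 take the places of Psmb5, Psmb6 and Psmb7 in newly built cores.

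Total RNA of primary cells from C57BL/6 mice was measured on 14 single-colour Agilent arrays, 2 for each of 7 groups. The cells span the paths from a shared myeloid progenitor to classical dendritic cells (cDC) and to neutrophils. WT GMP, granulocyte-monocyte progenitors of wildtype bone marrow, were gated as CD117+ CD16/32+ cells without CD115, Sca-1, IL-7R or lineage markers, and the IRF8KO GMP arrays hold cells of the same gate with the IRF8KO genotype. IRF8 is a transcription factor of the dendritic cell and monocyte lineages. WT CDP, common dendritic cell progenitors, were CD115+ CD135+ marrow cells with intermediate CD117 and without Sca-1, IL-7R or lineage markers. WT pre-cDC, precursors of cDC, were marrow CD11c+ CD135+ CD172a+ cells without MHC-II or lineage markers. WT CD8+ cDC and WT CD4+ cDC were spleen CD11c+ MHC-II+ cells with CD8 or CD4, and WT Neu were marrow CD11b+ neutrophils with high Ly6G. Cells were enriched with magnetic beads and then sorted by flow cytometry, except that CD4+ cDC had the magnetic step alone and neutrophils the flow sort alone. The labels do not say whether the 2 samples of a group came from separate animals, so each p-value below measures only how far these samples spread, and that spread may be technical.

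A level below is the log2 processed signal of a probe minus the 75th percentile of its array, and a change is the difference of 2 group means on that scale. The 75th percentile ranged from 77.4 to 516 intensity units over the 12 arrays of the larger design, and the CDP arrays, at 77.4 and 77.5, were the faintest. Duplicate arrays correlated at 0.9967 to 0.9987 across genes, and the median SD of a member between the 2 arrays of a group was 0.033 to 0.045 in the 6 groups of the larger design and 0.047 in CD4+ cDC. The WT GMP and IRF8KO GMP arrays share a slide, as do the CD8+ cDC and neutrophil arrays, whereas CDP and pre-cDC each have a slide of their own, so in the comparisons that cross slides the slide and the group cannot be told apart. The single Irf8 probe used read 6.22 and 6.17 on the arrays labelled IRF8KO GMP against 4.79 and 4.87 in WT GMP, a change of 1.36 ± 0.07 (SE, limma adjusted p = 1.4e-05). It therefore goes against the label unless it lies outside the deleted part, and the position of the deletion is not used here. Each group's own markers were well above background on both of its arrays: 5 of 5 for GMP, 4 of 4 for CDP, 4 of 4 for pre-cDC, 5 of 5 for CD8+ cDC and 5 of 5 measured for neutrophils. Only the CD8+ cDC list was complete in its own group alone. The GMP list was also complete in CDP, pre-cDC and neutrophils, the CDP list in WT GMP, pre-cDC and CD8+ cDC, and the pre-cDC list in CDP and CD8+ cDC. Kit, in the GMP and CDP lists, read 2.22 and 2.25 in CDP against 5.27 and 5.23 in WT GMP, while the other 3 CDP markers were higher in CDP. In bulk RNA, fewer cells of a type and less RNA per cell cannot be told apart.

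The promoters of 4 genes on which the results turn are shown: those of the catalytic subunits Psmb5 and Psmb6, which moved together, and the caps Psme1 and Psme3, which moved in opposite directions. Each is the window of 250 bases before the annotated start from RefSeq (GRCm38.p6), read 5′ to 3′ on the strand of the gene. Capitals mark a match to a searched motif, which is the antioxidant response element core TGACNNNGC in Psmb5 and Psmb6 and the CCAAT box, on the opposite strand, in Psme3.
Psmb5, chr14:54617996-54618245, minus strand: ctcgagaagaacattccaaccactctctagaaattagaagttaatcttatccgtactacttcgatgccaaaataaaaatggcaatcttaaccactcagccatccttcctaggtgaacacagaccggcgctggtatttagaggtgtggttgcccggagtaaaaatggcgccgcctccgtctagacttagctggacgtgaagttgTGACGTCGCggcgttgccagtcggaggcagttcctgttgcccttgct
Psmb6, chr11:70525107-70525356, plus strand: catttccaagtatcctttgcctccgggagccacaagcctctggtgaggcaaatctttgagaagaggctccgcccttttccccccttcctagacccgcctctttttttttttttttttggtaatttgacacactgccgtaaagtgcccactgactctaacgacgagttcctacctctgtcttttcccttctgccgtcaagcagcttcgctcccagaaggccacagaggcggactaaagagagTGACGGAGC
Psme1, chr14:55578244-55578493, plus strand: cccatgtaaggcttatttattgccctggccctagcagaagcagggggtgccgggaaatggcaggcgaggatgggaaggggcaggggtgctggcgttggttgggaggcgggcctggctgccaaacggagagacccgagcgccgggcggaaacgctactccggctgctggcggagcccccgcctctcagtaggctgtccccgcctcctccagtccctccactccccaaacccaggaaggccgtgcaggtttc
Psme3, chr11:101315963-101316212, plus strand: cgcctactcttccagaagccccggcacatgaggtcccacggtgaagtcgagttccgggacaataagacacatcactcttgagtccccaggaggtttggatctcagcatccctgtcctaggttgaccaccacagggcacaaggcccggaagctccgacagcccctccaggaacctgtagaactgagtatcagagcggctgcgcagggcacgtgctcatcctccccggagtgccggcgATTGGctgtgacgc
The match begins 47 bases before the start in Psmb5, 9 bases before it in Psmb6 and 14 bases before it in Psme3, and the Psme1 window holds none of the searched motifs. Of the 46 members, 38 have a window, and 5 of these (13.2%) hold TGACNNNGC on either strand against 10.2% of 32851 windows of all genes. Members are counted by gene, with a match in any window of the gene, and the background by window, so these shares are not of like units. The median GC content was 58% over the members' windows and 52.4% over all windows. CCAAT occurs in 15 of the 38 (39.5%) against 33.8% of all windows. The interferon regulatory factor element, spelled as GAAA, any 2 bases and GAAA, occurs in 3 (7.89%: Psmb3, Psmd4 and Psmd9) against 2.98%, and the composite element, GGAA, any 2 bases and GAAA, in 1 (2.63%: Psmc2) against 2.3%. A match is a description of letters in this window and not a measured binding site.

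On the scale reported, most proteasome genes had their highest RNA level in CDP and lay lower in pre-cDC. CDP was the highest group for 34 of the 43 members well above background on all 12 arrays, whereas it was the highest for 34.9% of the 8716 genes measured to the same standard. The members are bright, with a median level at percentile 84.2 of the 8716 genes, so all genes are not a background of like level. The groups were not ranked under the other scalings. The lowest group was neutrophils for 22 members and pre-cDC for 14, and these are the lowest for 34% and 16.5% of all genes. The median over the 43 members was 4.80 and 4.79 on the WT GMP arrays, 4.59 and 4.53 on the arrays labelled IRF8KO GMP, 5.16 and 5.25 in CDP, 4.27 and 4.32 in pre-cDC, 4.40 and 4.36 in CD8+ cDC and 3.58 and 3.72 in neutrophils. The arrays of no 2 groups overlapped in this median, and pre-cDC and CD8+ cDC lay closest. The range of a member over the 6 group means had a median of 1.61, against 2.09 for all genes.

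**Figure D1:**
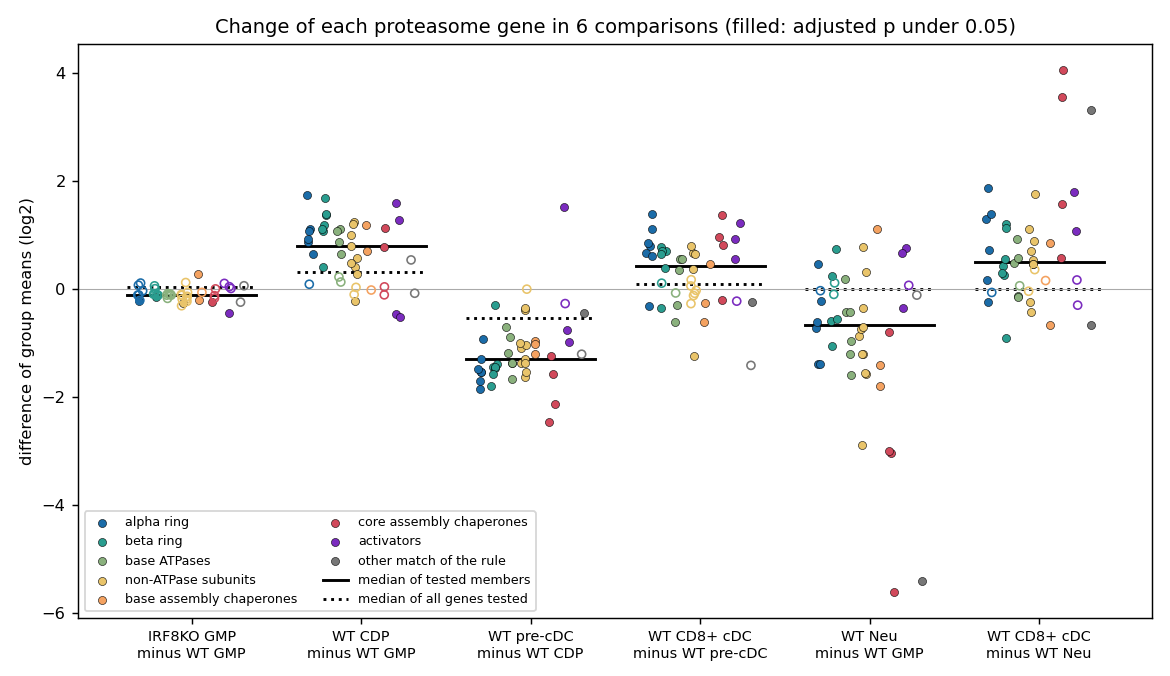
Change of each tested proteasome gene (y axis, difference of group means in log2 units) in the 6 comparisons (x axis), coloured by role, with filled points for limma adjusted p under 0.05 and lines for the median of the 44 members and of all genes tested. Of 44 members 37 sit above zero in CDP minus GMP (median 0.78) and 43 below it in pre-cDC minus CDP (median -1.30), and the chaperones Psmg1, Psmg2 and Psmg4 lie at -3.00 or lower in neutrophils minus GMP.

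Between GMP and CDP, the first step toward dendritic cells, 31 of 44 members rose and 3 fell at a limma adjusted p under 0.05, on a background in which 78% of the 11899 genes tested were called (51.9% higher and 26.1% lower). The median change was 0.78 for members and 0.31 for all genes. The highest changes were those of Psma7, an alpha subunit (1.73 ± 0.057, SE), the beta subunit Psmb4 (1.69 ± 0.053), Psme2 (1.59 ± 0.048) and Psmb6 (1.38 ± 0.089). The 3 that fell were the activators Psme4 (-0.52 ± 0.13) and Psme3 (-0.47 ± 0.093) and the base subunit Psmd2 (-0.22 ± 0.066). The fall of Psmd2 was not called without WT GMP replicate 1 (-0.15) or CDP replicate 1 (-0.17), and that of Psme4 was not called without WT GMP replicate 2 (-0.44). How many rose depended on the scaling: 23 rose and 14 fell after normexp background correction, 22 and 14 after quantile normalization, 25 and 12 with the percentile over detected probes and 23 and 13 in the authors' deposited table. In the same order, 45.3% of all genes rose and 32.7% fell, then 37.9% and 35.3%, 31.5% and 46.5%, and 38.4% and 34.8%. The median of all genes itself moved from 0.31 to 0.12, 0.01, -0.20 and 0.02 in those 4, and relative to it the members' median was 0.47 as reported and 0.09, 0.20, 0.47 and 0.19. The 0.47 with the percentile over detected probes equals the reported value by construction, since that scaling shifts all genes of an array alike. The call and direction held in all 5 other scalings for 22 of the 31, among them Psma7, Psmb4, Psmb5, Psmb6, Psme1 and Psme2. Of the 11 members with several probes, 4 had probes of opposite sign here. The probe used and the other gave 0.70 and -0.81 for Psmd9, which is among the 22, and 0.40 and -0.48 for Psmd12. They gave 0.03 and -0.51 for Psmg1 and -0.52 and 1.06 for Psme4. Across the genes tested, the change rose with the level in this comparison (Spearman correlation 0.384 over 11899 genes, which share arrays, and 0.148 after quantile normalization), and the CDP arrays are the faintest.

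The summed level of 10 proliferation markers was 7.67 to 7.69 in WT GMP and 9.31 to 9.33 in CDP, with 7 of the 10 higher and Cdk1, Tyms and Aurkb lower in CDP. The marker sums of several other lineages were higher in WT GMP. The erythroid list summed to 5.05 to 5.08 in WT GMP against 0.83 to 0.89 in CDP. In CDP 3 of its 5 genes were well above background and Klf1 was not. The basophil and mast list summed to 5.82 to 5.91 in WT GMP against 2.31 to 2.35 in CDP, where 2 of 4 genes but not Fcer1a and Ms4a2 were well above background. The neutrophil list summed to 3.25 to 3.30 in WT GMP against 0.32 in CDP, but of its 3 genes tested 2 were lower and Mmp8 was higher in CDP. The T and NK list summed to 6.59 to 6.72 in WT GMP against 4.26 to 4.42 in CDP. That sum is mostly Nkg7, and of the 2 genes tested Nkg7 was lower and Cd3e higher in CDP. The monocyte and macrophage list went the other way, at 0.99 to 1.04 in WT GMP against 4.61 to 4.63 in CDP, where 3 of 4 genes but not C1qa were well above background. The part of these lists in the change of the proteasome genes was not tested.

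From CDP to pre-cDC the direction turned: 40 of 44 members fell and 1 rose, where 84.2% of 11481 genes were called, 60.3% of them lower and 23.9% higher as shares of the genes tested. The median change was -1.30 for members and -0.54 for all genes. The lowest changes were those of the chaperones Psmg1 (-2.47 ± 0.16, SE) and Psmg3 (-2.14 ± 0.056), Psma7 (-1.85 ± 0.057) and Psmb4 (-1.81 ± 0.053). The 1 member that rose was Psme3, by 1.52 ± 0.093. Both comparisons use the CDP arrays, so they are not independent of each other. With quantile normalization 34 fell and 5 rose, and so did the same numbers in the authors' deposited table, while with the percentile over detected probes 35 fell and 5 rose. In the same order, 49.1% of all genes fell and 30.5% rose, then 48% and 31.5%, and 38.6% and 40.3%. The calls held in all 5 other scalings for 34 of the 40, and for Psme3. The catalytic subunit Psmb7 and the regulatory subunits Psmd2 and Psmd8, which fell as reported, were called higher in those 3 scalings. Proliferation markers summed to 8.72 to 8.81 in pre-cDC, below CDP and above GMP, with 6 of the 10 genes lower and 2 higher than in CDP. Neutrophil markers summed to 5.58 to 5.64 in pre-cDC against 0.32 in CDP. In CDP 2 of 5 neutrophil genes but not S100a8, Ltf and Cd177 were well above background. Of the 4 neutrophil genes tested, 3 were higher in pre-cDC and Mmp8 was lower. The basophil and mast list summed to 5.10 to 5.31 against 2.31 to 2.35. The plasmacytoid list summed to 8.26 to 8.32 in pre-cDC against 7.32 to 7.33 in CDP, with 3 of its 3 genes higher in pre-cDC. The part of these lists in the change was not tested.

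From marrow pre-cDC to spleen CD8+ cDC 25 members rose and 9 fell, where 74.7% of 12597 genes were called (40.3% higher and 34.4% lower). The median change was 0.42 for members and 0.08 for all genes. The alpha subunit Psma3 rose most (1.39 ± 0.050, SE), followed by the chaperone Psmg4 (1.36 ± 0.08), Psme2 (1.21 ± 0.048) and Psma5 (1.11 ± 0.053). The largest falls were those of Psmd8, a lid subunit (-1.24 ± 0.053), the chaperone Psmd9 (-0.62 ± 0.063), the ATPase Psmc4 (-0.61 ± 0.054) and Psmb7 (-0.36 ± 0.063). Of the 25 that rose, 24 kept their call in all 5 other scalings, but of the 9 that fell only Psmd8, Psmd9 and Psmc4 did. After normexp correction 27 rose and 4 fell, where 40.1% of all genes rose and 36.9% fell. With array medians 27 rose and 3 fell, where 46.2% and 23% did. Proliferation markers went the other way, from 8.72 to 8.81 in pre-cDC down to 6.79 to 6.87 in CD8+ cDC. The erythroid list summed to 7.51 to 7.63 in CD8+ cDC against 2.41 to 2.45 in pre-cDC, but this sum is nearly all Hba-a1, a hemoglobin gene, and among the 3 genes tested 1 was higher and 2, Car1 and Epor, were lower in CD8+ cDC. The basophil and mast list fell from 5.10 to 5.31 to between -2.19 and -1.93, where Fcer1a, Ms4a2 and Mcpt8 were not well above background. The monocyte and macrophage sum fell from 5.53 to 5.64 to between 2.13 and 2.14, but its 4 genes were split. Ccr2 and Fn1 were lower in CD8+ cDC, and Adgre1 and C1qa were higher. The B cell list summed to 2.36 to 2.40 in CD8+ cDC against -2.33 to -1.98 in pre-cDC, with 2 of 3 genes well above background on both arrays in the first and 0 in the second. The part of these lists was not tested.

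The widest changes of single members were in neutrophils. Compared with WT GMP, 30 members fell and 9 rose, where 92.4% of 12520 genes were called (46.4% lower and 46% higher). The median change was -0.67 for members and -0.00 for all genes. Psmg2 (-5.61 ± 0.052, SE), Psmg1 (-3.05 ± 0.16) and Psmg4 (-3.00 ± 0.08), chaperones of the alpha ring, fell most among the proteasome genes, followed by the lid subunit Psmd7 (-2.90 ± 0.064). Psmc3ip was not well above background on either neutrophil array and was at least 21.8-fold lower than in GMP. The members that rose most were the chaperone Psmd10 (1.11 ± 0.073), the ubiquitin receptor Psmd4 (0.77 ± 0.053), Psme2 (0.75 ± 0.048) and the beta subunit Psmb3 (0.73 ± 0.045). All 30 falls kept their call in the 5 other scalings, but of the 9 that rose only Psmd10 did. With array medians 34 members fell and 1 rose, where 51.3% of all genes fell and 36.4% rose. Proliferation markers summed to 4.48 to 4.57 in neutrophils against 7.67 to 7.69 in GMP, with Aurkb not well above background. Erythroid markers summed to 2.91 to 2.97 against 5.05 to 5.08, with Klf1 and Epor not well above background. Of the 4 erythroid genes tested, 3 were lower in neutrophils and Hba-a1 was higher. The part of these lists was not tested.

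Between the mature cells, 29 members were higher and 8 lower in CD8+ cDC than in neutrophils, where 85.8% of 12817 genes were called (43.9% higher and 41.9% lower). The median was 0.50 for members and -0.00 for all genes. These arrays share a slide. The chaperones Psmg2 (4.05 ± 0.052, SE) and Psmg4 (3.55 ± 0.08) differed most, then Psma5 (1.86 ± 0.053), and Psmc3ip was at least 5.09-fold higher in CD8+ cDC. Psmb3 (-0.91 ± 0.045), Psmd10 (-0.68 ± 0.073), Psme3ip1 (-0.67 ± 0.08) and Psmd4 (-0.43 ± 0.053) were lower in CD8+ cDC. Of the 29, 28 kept their call in the 5 other scalings, and of the 8, Psmb3, Psmd10 and Psme3ip1 did. The split was 32 to 4 after normexp correction, 36 to 4 with the percentile over detected probes and 32 to 3 with array medians. In the same order, 41.5% of all genes were higher and 44.8% lower, then 49.1% and 35.2%, and 46.2% and 34.2%. The comparison shares the neutrophil arrays with the preceding one. Proliferation markers were higher in CD8+ cDC too, at 6.79 to 6.87 against 4.48 to 4.57, and the erythroid list summed to 7.51 to 7.63 against 2.91 to 2.97, nearly all of it Hba-a1, with 2 genes higher and Car1 lower. The part of these lists was not tested.

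How many of these genes differed from WT GMP on the arrays labelled IRF8KO GMP depended on the scaling. On the scale reported 1 of 44 members rose and 6 fell (15.9%), where 25.2% of 12156 genes were called (15.2% higher and 9.98% lower). The median was -0.12 for members and 0.04 for all genes, and 34 of the 44 changes were negative. Psmd10 rose by 0.28 ± 0.073 (SE), and Psme4 (-0.45 ± 0.13), Psmd12 (-0.26 ± 0.06), Psmg2 (-0.24 ± 0.052) and Psma7 (-0.22 ± 0.057) fell, with limma adjusted p from 0.014 to 0.045. None of the 7 calls held in all 5 other scalings. Of the 44, 22 were called after quantile normalization, where 26.8% of all genes were, 22 in the authors' deposited table (27.5%) and 20 with the percentile over detected probes (25.9%), so that the members' share lay above that of all genes in these 3. It lay below in the other two, with 5 called after normexp correction (33.5% of all genes) and 0 with array medians (12.2%). Leaving out 1 of the 4 arrays left 0 or 1 call: 0 without replicate 1 of WT GMP or replicate 2 of IRF8KO GMP, and 1 without either of the others. In the arrays labelled IRF8KO GMP proliferation markers summed to 7.28 to 7.33 against 7.67 to 7.69, erythroid markers to 0.89 to 0.93 against 5.05 to 5.08, and basophil and mast markers to 4.26 to 4.32 against 5.82 to 5.91. Neutrophil markers summed to 5.24 to 5.34 against 3.25 to 3.30 in WT GMP, where Ltf and Cd177 were not well above background, and monocyte and macrophage markers to 3.22 to 3.30 against 0.99 to 1.04. The part of these lists was not tested.

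**Figure D2:**
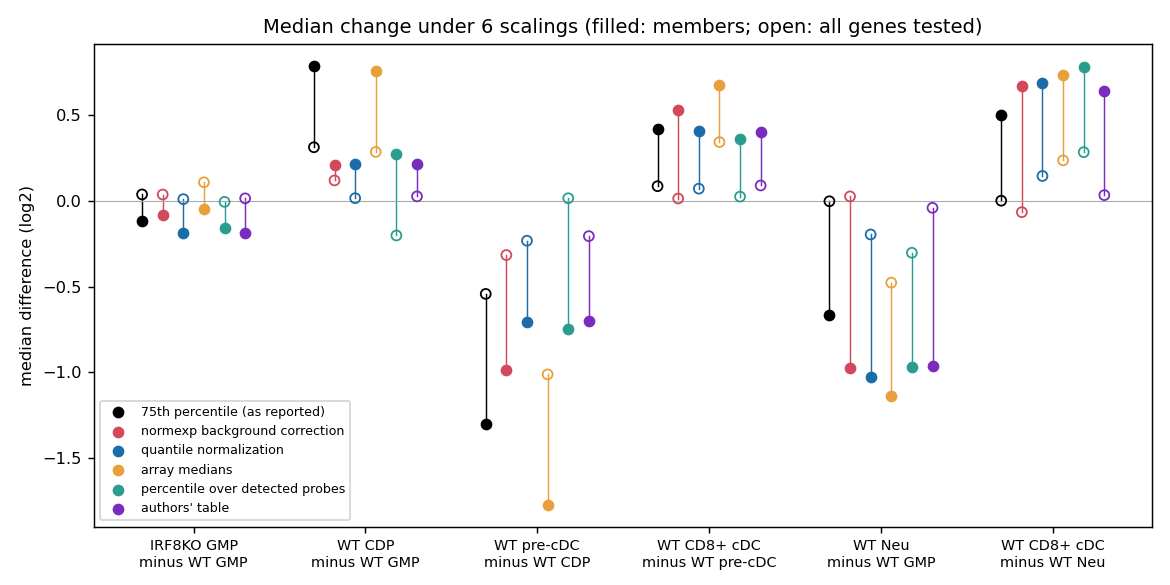
Median change of the tested members (filled) and of all genes tested (open) in log2 units for 6 comparisons, under the scaling reported and 5 others. The members' median stays above zero in CDP minus GMP (0.21 to 0.78) and below it in pre-cDC minus CDP (-1.77 to -0.70). The gap to all genes keeps its sign in every comparison. Array medians and the percentile over detected probes shift all genes of an array alike, so these scalings cannot alter the gap. In CDP minus GMP it is 0.47 as reported, 0.09 after normexp correction, 0.20 after quantile normalization and 0.19 in the authors' deposited table.

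The catalytic subunits Psmb5 and Psmb6 followed the general course, and Psmb7 did not keep pace. Psmb5 (gene ID 19173, chromosome 14), the chymotrypsin-like subunit, read 7.03 and 6.95 in WT GMP, 6.89 and 6.87 on the arrays labelled IRF8KO GMP, 8.11 and 8.08 in CDP, 6.66 and 6.63 in pre-cDC, 7.36 and 7.33 in CD8+ cDC and 7.08 and 7.11 in neutrophils. CDP was highest and pre-cDC lowest, and neutrophils lay within 0.16 of WT GMP. It rose by 1.11 ± 0.049 (SE from the fit of all 6 groups, 2 arrays each) into CDP (limma adjusted p = 3.8e-07), fell by 1.45 into pre-cDC (1.6e-07) and rose by 0.71 into CD8+ cDC (4.6e-06). Its change in neutrophils against GMP, 0.11 (adjusted p = 0.063), was negative in all 5 other scalings. Psmb6 (gene ID 19175, chromosome 11), the caspase-like subunit, read 6.30 and 6.31 in WT GMP, 6.34 and 6.06 on the arrays labelled IRF8KO GMP, 7.67 and 7.69 in CDP, 6.07 and 6.13 in pre-cDC, 6.74 and 6.77 in CD8+ cDC and 6.15 and 6.24 in neutrophils. It rose by 1.38 ± 0.089 into CDP (limma adjusted p = 2.8e-06), fell by 1.58 (1.1e-06) and rose by 0.65 (0.00026). Psmb7 (gene ID 19177, chromosome 2), the trypsin-like subunit, read 4.16 and 4.22, 4.11 and 4.03, 4.56 and 4.62, 4.24 and 4.32, 3.93 and 3.90, and 3.58 and 3.68 in the same order of groups. Its rise into CDP, 0.40 ± 0.063, became -0.09 to -0.16 under 4 other scalings, so its direction there is not settled. Its fall into CD8+ cDC (-0.36) was opposite to the rises of Psmb5 and Psmb6.

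**Figure D3:**
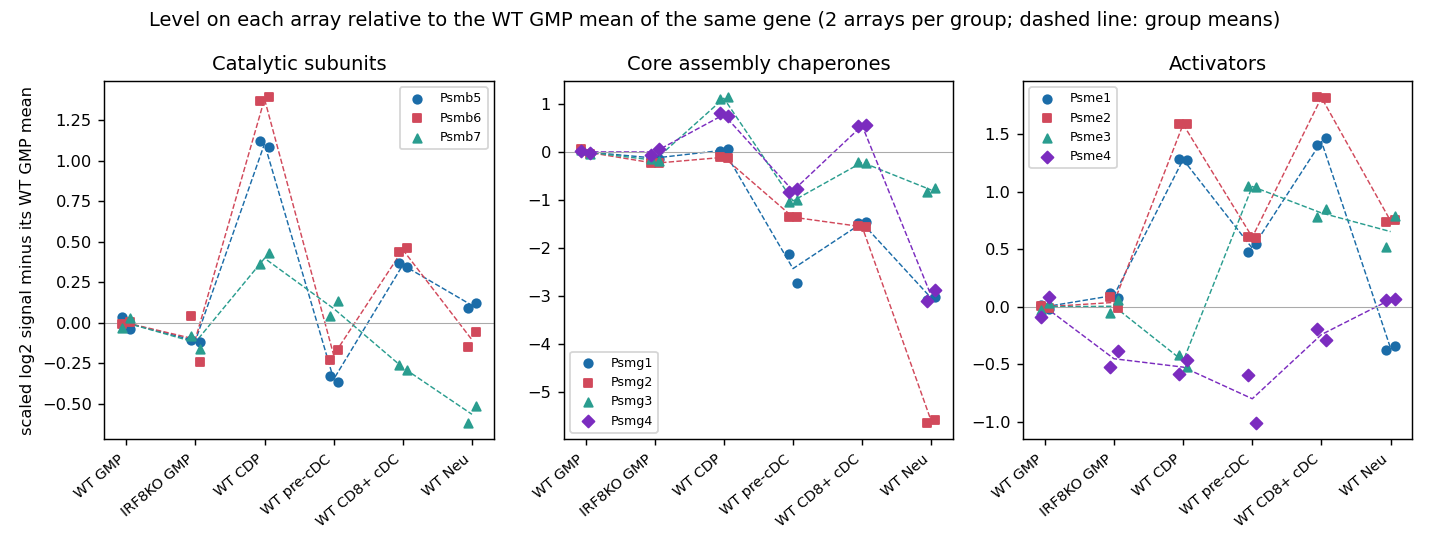
Level of the catalytic subunits, the core assembly chaperones and the activators on each array (points, 2 per group, joined by dashed lines through the group means), as the scaled log2 signal minus the WT GMP mean of the same gene. Psmg2 lies 5.61 below GMP in neutrophils, and Psme3 is lowest in CDP, where Psme1 and Psme2 rise.

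Beside the counts by role here and below, 51.9% of all genes rose into CDP, 60.3% fell into pre-cDC and 40.3% rose into CD8+ cDC. In neutrophils 46.4% fell and 46% rose. Most of the alpha ring moved together. Into CDP 6 of its 7 tested genes rose (median 0.93), into pre-cDC 7 of 7 fell (median -1.54), and into CD8+ cDC 6 rose and Psma6 fell (-0.32). The rise into CDP was called for 4 to 6 of the 7 under the other scalings, and Psma3, which rose by 0.64 as reported, was called lower after quantile normalization and in the authors' deposited table. Psma7 (gene ID 26444, chromosome 2) read 6.03 and 5.99 in WT GMP, 7.72 and 7.76 in CDP, 5.91 and 5.87 in pre-cDC, 6.51 and 6.46 in CD8+ cDC and 5.77 and 5.78 in neutrophils, so that the CDP arrays stood clear of all others. Psma4 had the least steady duplicates, at 3.99 and 3.07 in pre-cDC. In neutrophils 5 alpha genes fell, from -0.23 for Psma7 to -1.40 for Psma5, while Psma2 rose by 0.45; Psma2 was among the rises that did not hold in all scalings. In the beta ring 7 of 7 rose into CDP (median 1.18) and 7 of 7 fell into pre-cDC (median -1.45), with Psmb7 changing least both times, and 6 or 7 of the 7 rose into CDP under each of the other scalings. In neutrophils the beta ring split, with 3 genes lower (Psmb2 -1.07 ± 0.054, Psmb1 -0.59 ± 0.073 and Psmb7 -0.56 ± 0.063, SE), Psmb3 and Psmb4 higher as reported, and Psmb5 and Psmb6 not called; the rise of Psmb3 was not called in all scalings, and Psmb4 was called lower after quantile normalization and in the authors' deposited table. Psmb3 (gene ID 26446, chromosome 11) read 6.35 and 6.31 in WT GMP, 7.06 and 7.05 in neutrophils and 6.13 and 6.17 in CD8+ cDC.

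For the steps that follow, 51.9% of all genes rose into CDP, 60.3% fell into pre-cDC and 46.4% fell in neutrophils. The ATPases of the base, Psmc1 to Psmc6, rose in 4 of 6 cases into CDP (median 0.75), fell in 6 of 6 into pre-cDC (median -1.28) and fell in 5 of 6 in neutrophils (median -0.70), where Psmc5 changed most (-1.59 ± 0.061, SE). Into CD8+ cDC they parted: Psmc2, Psmc3 and Psmc6 rose by 0.35 to 0.55, while Psmc4 fell by 0.61 and Psmc1 by 0.29. The call of Psmc3 and that of Psmc1 did not hold in all 5 other scalings, and the second Psmc3 probe gave -0.38. Of the 11 non-ATPase subunits 8 rose and 1 fell into CDP (median 0.47), 10 fell into pre-cDC (median -1.09), and 9 fell and 2 rose in neutrophils (median -0.88). Their rise into CDP depended on the scaling: the median turned to between -0.04 and -0.14 in 4 of the other scalings, in which 3 or 4 genes rose and 4 or 5 fell. The base ATPases' median for the same step fell to between 0.08 and 0.24 in those 4. Psmd7 (gene ID 17463, chromosome 8), a partner of the deubiquitinase Psmd14 in the lid, read 4.03 and 4.03 in WT GMP, 4.05 and 4.05 in CDP, 2.48 and 2.54 in pre-cDC, 2.86 and 2.91 in CD8+ cDC and 1.04 and 1.22 in neutrophils. On the scale reported Psmd7 thus did not share the rise into CDP (0.03, adjusted p = 0.73, limma) but shared both falls. The calls of both falls held in all 5 other scalings. Its flat value into CDP depends on the scale, since the percentile over detected probes lowers all genes of that step alike (members' median 0.78 to 0.27). Psmd14 itself fell by 1.59 in neutrophils. Psmd8 (gene ID 57296, chromosome 7) read 3.93 and 3.94 in WT GMP, 5.09 and 5.18 in CDP, 4.76 and 4.81 in pre-cDC and 3.52 and 3.56 in CD8+ cDC, so that pre-cDC lay nearer to CDP than to CD8+ cDC. Its fall into CD8+ cDC (-1.24) held in each scaling, whereas its fall into pre-cDC (-0.35) did not.

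The core assembly chaperones included the member with the widest change. Psmg2 (gene ID 107047, chromosome 18), which with Psmg1 starts the alpha ring, read 3.35 and 3.25 in WT GMP, 3.07 and 3.07 on the arrays labelled IRF8KO GMP, 3.20 and 3.18 in CDP, 1.94 and 1.95 in pre-cDC, 1.76 and 1.73 in CD8+ cDC and -2.34 and -2.27 in neutrophils. The neutrophil arrays lay far below all others, though the probe was well above background on both. Psmg1 (gene ID 56088, chromosome 16) read 5.09 and 5.03 in WT GMP, 5.08 and 5.11 in CDP, 2.93 and 2.33 in pre-cDC, 3.57 and 3.59 in CD8+ cDC and 1.98 and 2.05 in neutrophils, and its second probe gave -3.36 for neutrophils against -3.05 for the one used. Psmg4 (gene ID 69666, chromosome 13) read 2.22 and 2.19 in WT GMP, 3.01 and 2.95 in CDP, 1.37 and 1.42 in pre-cDC, 2.75 and 2.76 in CD8+ cDC and -0.91 and -0.68 in neutrophils. Psmg3, its partner, fell least in neutrophils (-0.79 ± 0.056, SE). The 4 core assembly chaperones all fell in both falls, with medians of -1.86 into pre-cDC and -3.02 in neutrophils, beside -0.10 for the beta ring and 0.36 for the activators in neutrophils. All 4 were called lower in neutrophils and in pre-cDC under each of the 5 other scalings. The base chaperones were divided there: Psmd9 (-1.79 ± 0.063) and Psmd5 (-1.41 ± 0.069) fell, and Psmd10 (gene ID 53380, chromosome X) rose from 1.12 and 1.09 to 2.22 and 2.22. Psmd10, also known as the oncoprotein gankyrin, was the 1 member that rose in neutrophils under each scaling tried, and its second probe gave 1.20.

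The activators went separate ways. Psme1 (gene ID 19186) and Psme2 (gene ID 19188), both on chromosome 14, were the 2 members with their highest level in CD8+ cDC. Psme1 read 5.90 and 5.87 in WT GMP, 6.00 and 5.96 on the arrays labelled IRF8KO GMP, 7.17 and 7.16 in CDP, 6.36 and 6.43 in pre-cDC, 7.29 and 7.35 in CD8+ cDC and 5.51 and 5.54 in neutrophils. Psme2 read 6.30 and 6.28, 6.37 and 6.28, 7.88 and 7.87, 6.90 and 6.89, 8.11 and 8.11, and 7.02 and 7.05 in the same order. CD8+ cDC and CDP stood above the other groups in both. Against neutrophils CD8+ cDC were higher by 1.80 ± 0.051 (SE) for Psme1 (limma adjusted p = 8.4e-09) and by 1.07 ± 0.048 for Psme2 (1.3e-07), but against GMP neutrophils were lower for Psme1 (-0.36) and higher for Psme2 (0.75). The second Psme2 probe gave -0.08 there, so the rise of Psme2 in neutrophils rests on the brighter probe. Psme3 (gene ID 19192, chromosome 11) read 2.90 and 2.96 in WT GMP, 2.88 and 2.99 on the arrays labelled IRF8KO GMP, 2.51 and 2.41 in CDP, 3.98 and 3.97 in pre-cDC, 3.71 and 3.78 in CD8+ cDC and 3.44 and 3.72 in neutrophils. It was the 1 member lowest in CDP and the 1 highest in pre-cDC, and both its fall into CDP and its rise into pre-cDC were called in all 5 other scalings. Psme4 (gene ID 103554, chromosome 11) was close to the percentile used for scaling, from -0.39 to 0.70 over the 12 arrays of the larger design, and its probes disagreed: into CDP the one used gave -0.52 and the other 1.06.

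The exchange of catalytic subunits was read as the log2 difference of the immunoproteasome subunit and its constitutive counterpart within each array, which a constant scaling of the array does not alter. Its level depends on both probes, so only its differences between arrays can be read. Psmb8, Psmb9 and Psmb10 all rose into CDP (by 1.52, 1.57 and 1.06), all fell into pre-cDC (-1.10, -0.99 and -1.03) and all rose into CD8+ cDC (0.93, 1.76 and 0.60), as did Psmb5 and Psmb6. Those calls of Psmb8, Psmb9 and Psmb10 held in all 5 other scalings. Psmb9 over Psmb6 was -1.31 and -1.36 in WT GMP, -1.39 and -1.08 on the arrays labelled IRF8KO GMP, -1.10 and -1.19 in CDP, -0.58 and -0.53 in pre-cDC, 0.59 and 0.52 in CD8+ cDC and -0.77 and -0.83 in neutrophils. It changed by 0.19 ± 0.098 (SE) into CDP (limma adjusted p = 0.11), by 0.59 into pre-cDC (0.00066) and by 1.11 into CD8+ cDC (1.9e-05). Psmb10 over Psmb7 rose by 0.66 ± 0.065 into CDP, fell by 0.72 into pre-cDC and rose by 0.97 into CD8+ cDC (limma adjusted p = 3.1e-05, 1.6e-05 and 3.9e-06). Psmb8 over Psmb5 rose by 0.42 ± 0.099 into CDP and by 0.35 into pre-cDC (0.0052 and 0.010), and by 0.23 into CD8+ cDC (0.069). Without pre-cDC replicate 2 the middle step was 0.21 and not called. CD8+ cDC exceeded neutrophils in all 3 ratios, by 1.82, 1.36 and 1.61, which are 3.54-fold, 2.56-fold and 3.06-fold (limma adjusted p = 4.5e-07, 2.7e-06 and 6.6e-08). In neutrophils against GMP the ratios parted, at -0.83 for Psmb8 over Psmb5, 0.53 for Psmb9 over Psmb6 and -0.70 for Psmb10 over Psmb7. On the arrays labelled IRF8KO GMP, Psmb10 over Psmb7 was higher by 0.33 (limma adjusted p = 0.0085), and the other 2 changed by -0.05 (0.75) and 0.10 (0.50). That call was lost after quantile normalization (0.20), in the authors' deposited table (0.19) and with array medians, and without WT GMP replicate 2 (0.25) or IRF8KO GMP replicate 2 (0.31).

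**Figure D4:**
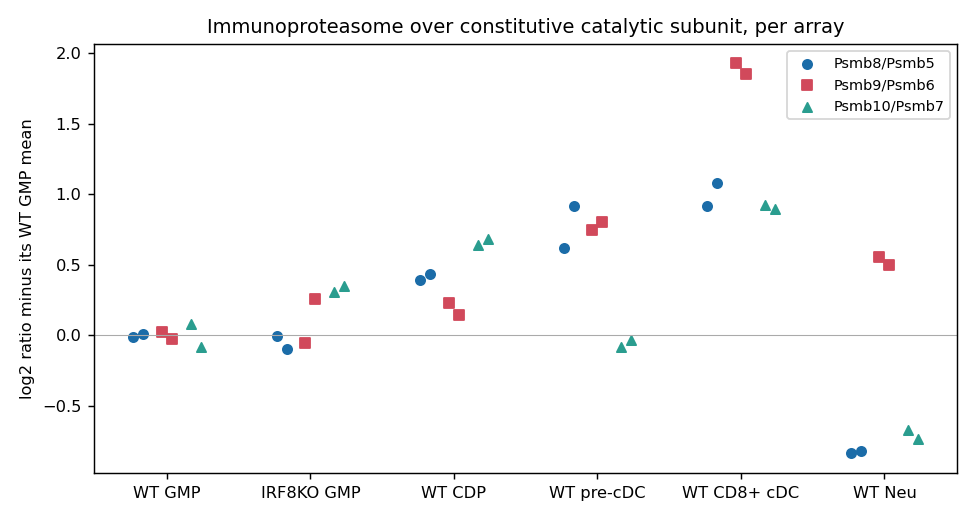
Log2 ratio of each immunoproteasome subunit to its constitutive counterpart on each array (points), minus its WT GMP mean, for 6 groups. All 3 ratios are higher in CD8+ cDC than in neutrophils, by 1.36 to 1.82.

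Other genes of the pathway were read from lists chosen with earlier results of these data known. Of 9 other proteasome genes 8 were measured. Into CDP 6 of these 8 rose, where 51.9% of all genes did, and 4 to 6 rose under the other scalings, where 31.5% to 45.4% did. Into pre-cDC 7 of the 8 fell, where 60.3% of all genes did, and 5 to 8 fell under the other scalings, where 38.6% to 70.5% did. The 2 that did not rise into CDP were Adrm1, a ubiquitin receptor, and the inhibitor Psmf1. Pomp, the chaperone of the beta ring, rose by 1.07 ± 0.067 (SE) into CDP, fell by 0.59 into pre-cDC, a change of between -1.06 and 0.10 under the other scalings, and rose by 1.51 into CD8+ cDC, while its change in neutrophils was 0.02 (limma adjusted p = 0.79) as reported but -0.51 to -0.28 under the other scalings, each called lower. The deubiquitinase Usp14 fell by 2.18 ± 0.066 into pre-cDC and by 3.75 in neutrophils, and the lid subunit Sem1 rose by 2.16 ± 0.059 in neutrophils. Among 4 regulators of proteasome genes, in neutrophils Ngly1 (3.21 ± 0.076), Nfe2l2 (2.40 ± 0.068) and Nfe2l1 (0.70 ± 0.19) rose and Ddi2 (-0.62 ± 0.18) fell, of which Nfe2l1 kept its call in 3 and Ddi2 in 4 of the 5 other scalings; Nfe2l1 and Nfe2l2 encode activators of proteasome gene transcription, and Ddi2 and Ngly1 process the Nfe2l1 protein. Into pre-cDC Nfe2l2 (-1.70) fell in each scaling and Ngly1, called lower in each, was not well above background on either pre-cDC array, while Nfe2l1 (0.57) and Ddi2 (0.71) were called higher as reported and in 1 and 4 of the 5 other scalings. Of 13 genes of ubiquitin and its delivery, 9 rose and 1 fell into CDP, where 51.9% of all genes rose and 26.1% fell. Under the other scalings as few as 3 of the 13 rose. Into pre-cDC 10 of them fell and 0 rose as reported, but 3 rose after quantile normalization, with the percentile over detected probes and in the authors' deposited table. Into CD8+ cDC 6 rose and 4 fell, where 40.3% of all genes rose and 34.4% fell, and in neutrophils 5 of the 12 tested rose and 5 fell, where 46% and 46.4% did.

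The CD4+ cDC arrays are of a smaller design, so group and design cannot be told apart, and their levels are set beside those of CD8+ cDC on the shared probes as a description. The 4 markers of CD4+ cDC were well above background in both groups. Of 44 members, 38 did not overlap between the groups, 11 higher in CD4+ cDC and 27 higher in CD8+ cDC, where 88.1% of 13520 genes did not overlap (42.7% and 45.3%). The balance turned in the authors' deposited table, with 23 higher in CD4+ cDC and 12 in CD8+ cDC, against 49.4% and 38.7% of all genes there, so no direction is given for the set. Psme3 stood apart on both scales: on shared probes it read 2.62 and 2.68 in CD8+ cDC against -0.21 and -0.03 in CD4+ cDC, a difference of -2.77, and -2.78 in the authors' deposited table. Psmg4 was also lower in CD4+ cDC on both (-1.33 and -1.30), as was Psma5 (-1.25 and -1.02), and Psmd8 was higher (0.61 and 0.81).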

How the data were processed

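Each array was hybridised with Cy3-labelled RNA made with a low-input amplification kit, per the labels' protocols, and read by Agilent Feature Extraction 10.7.3.1, per the file headers. The deposited processed signal is an intensity, background-subtracted by that software. Control and outlier spots were dropped, the signal of each spot was taken as log2 and the spots of each probe were averaged. This mean was reduced by the 75th percentile of its array. A probe counted as well above background if at least 0.5 of its spots were so marked. Probes were named by accession through the RefSeq table (26762 probes, 20284 genes), and the brightest probe stood for a gene. The 12 arrays of the larger design (55681 probes) were fitted together with limma 3.58.1 in R 4.3.3, 6 groups of 2 without covariates. Each SE rests on a moderated spread of the gene over all 6 groups, and not on the arrays of the 2 groups compared alone. In each comparison, genes had to be well above background on 2 of 2 arrays in either group; p-values were adjusted over these by Benjamini-Hochberg and called at 0.05. The fit was also run on simulated data with independent noise, for IRF8KO GMP against WT GMP alone. Slide and scaling effects were not simulated, so that run does not bear on them.

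The text names in each comparison the 4 called members with the highest and the 4 with the lowest change, and always the catalytic subunits and activators; other members are named as extremes of their role, chosen after their values were seen. The members and lists were chosen with earlier results of these data known. Alternatives were normexp background correction (offset 50), quantile normalization, array medians, the percentile over only the probes that all 12 arrays detect, the authors' deposited table of intensities (39429 probes on a common distribution, taken as log2; its making is not described in the labels), no filter, the mean of probes, the replicate block, fits of 2 groups and leaving out each array. Normexp used median signals, since the files hold no mean signal column. The replicate numbers did not pair the samples: over 15 pairs of groups, same-numbered arrays correlated at -0.211 to 0.0768 in their deviations across 8716 genes. The 2 CD4+ cDC arrays, of the smaller design (39429 probes), entered no test. Gene and motif positions are those of GRCm38.p6. With 2 arrays per group, their number limits the precision.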

Additional observations from a re-analysis of the deposited data

How the results depend on the processing

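With 2 arrays per group, a call left after removing 1 array assumes that the lone sample varies like the other groups. Outside the removal of single arrays, 47 of 54 counts of called members stayed within 1.5 times, 29 of 54 members' medians within the replicate spread, 587 of 666 values of named members and 149 of 162 ratio values kept their direction and call. Some settings could not alter a value. The replicate block and the fits of 2 groups left each median as it was, and array medians and the percentile over detected probes left each ratio change as it was. These tallies therefore overstate how well the results held. The causes of the other values were not tested. Replicate 1 and 2 gave no pairing; with the replicate block 4 members were called between the GMP groups and 35 between CD8+ cDC and neutrophils, and the other counts did not change.

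For the arrays labelled IRF8KO GMP against WT GMP, the 7 called members became 22 (quantile normalization), 0 (array medians), 20 (percentile over detected probes), 22 (authors' deposited table), 0 (no filter), 3 (mean of probes) and 0 to 1 (leaving out 1 array). The median became -0.19 (quantile), -0.046 (array medians) and -0.19 (authors' deposited table). Psme1 became -0.062 (quantile) and -0.052 (authors' deposited table), Psme2 -0.018 (normexp), -0.11 (quantile), -0.0049 (detected probes) and -0.10 (authors' deposited table), and Psme3 -0.023, -0.038 and -0.025 (quantile, detected probes, authors' deposited table). Psmb8 over Psmb5 became 0.0066 (quantile), and Psmb10 over Psmb7 0.20 (quantile), 0.33 (array medians) and 0.19 (authors' deposited table). Leaving out 1 array gave -0.24 to 0.040 for Psmb6, -0.0065 to 0.083 for Psme2, -0.051 to 0.061 for Psme3, -0.053 to 0.26 for Psmb9 over Psmb6 and 0.25 to 0.41 for Psmb10 over Psmb7.

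For CDP against GMP the median was 0.21 (normexp), 0.22 (quantile), 0.27 (detected probes) and 0.21 (authors' deposited table), Psmb7 -0.093, -0.16, -0.11 and -0.16 in the same order, Psme4 0.27 (mean of probes), and Psmb9 over Psmb6 0.27 (quantile), 0.28 (authors' deposited table) and 0.19 (2 groups), each called. For pre-cDC against CDP the median was -0.99 (normexp), -0.70 (quantile), -1.77 (array medians), -0.74 (detected probes) and -0.70 (authors' deposited table), Psmb7 0.29, 0.25 and 0.31 (quantile, detected probes, authors' deposited table), Psme4 0.28 (detected probes), and Psmb8 over Psmb5 0.16 (normexp), 0.35 (2 groups) and 0.21 to 0.50 (leaving out 1 array). For CD8+ cDC against pre-cDC the median was 0.53 (normexp), 0.67 (array medians) and 0.36 (detected probes), Psme3 0.029 (normexp) and 0.027 (array medians), and Psmb8 over Psmb5 0.24 (normexp), 0.25 (quantile), 0.25 (authors' deposited table), 0.43 (mean of probes) and 0.080 to 0.37 (leaving out 1 array).

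For neutrophils against GMP the median was -0.97 (normexp), -1.03 (quantile), -1.14 (array medians), -0.97 (detected probes) and -0.96 (authors' deposited table). Psmb5 was -0.19, -0.10, -0.37, -0.19 and -0.071 in that order and -0.12 (mean of probes), and Psme4 -0.16 (normexp), -0.41 (array medians), -0.24 (detected probes) and -0.021 to 0.15 (leaving out 1 array). For CD8+ cDC against neutrophils the median was 0.67, 0.68, 0.73, 0.78 and 0.64 in the order of settings above, and Psmb5 -0.0028 (quantile) and -0.0077 (authors' deposited table).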
